A study of Rattus norvegicus with 12 samples.

Results

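Described here are 10 iron genes: the genes for the hormone hepcidin and the proteins that set its level, and the genes by which liver cells take up, store and release iron. Of these 10 named genes, 8 were matched by gene name in the table of liver transcripts, namely *Hamp*, *Hfe*, *Hfe2*, *Tfr2*, *Tfrc*, *Tf*, *Fth1* and *Slc40a1*. *Ftl1* and *Bmp6* were not matched by name and are not analysed here under those names. The 8 genes carried 14 of the 34391 listed transcripts; 12 of these were above 0 in at least 1 liver, and the transcript with the highest mean level stood for each gene. The samples were whole livers of 12 adult female rats of iP10a, a single inbred line derived from alcohol-preferring P rats, with 6 animals per group. The EtOH animals chose freely between water and ethanol solutions of 10, 20 and 30% for 23 weeks, and the control animals had water only. All were 38 weeks old except EtOH animal 6, at 39 weeks. Both groups had chow without restriction. The groups were not pair-fed, intake was voluntary, and blood alcohol was not detectable at sacrifice. Chronic drinking and the most recent drinking cannot be told apart in these livers.

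Hepcidin is a small peptide hormone secreted by hepatocytes. It binds ferroportin, the only known cellular iron exporter of mammals, and causes its internalisation and breakdown, so that less iron enters plasma from the gut, from macrophages and from hepatocytes. Its transcription rises when bone morphogenetic proteins (BMPs) signal through SMAD factors, helped by hemojuvelin, HFE and transferrin receptor 2, and also when interleukin 6 acts through STAT3. Iron circulates on transferrin, enters cells through transferrin receptor 1, and is stored inside shells made of ferritin heavy and light chains. Translation and stability of several of these mRNAs are set by iron regulatory proteins, so for the ferritins in particular an mRNA level need not follow the protein level.

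Levels are in RPKM, reads scaled to transcript length and to the mapped reads of each library, on which genes of different length can be compared. Differences between groups are EtOH minus control on the scale of log2(RPKM + 0.5) after quantile normalization, and were tested with limma across all 21718 transcripts above 0 in at least 1 liver. A transcript was called when its Benjamini-Hochberg adjusted p fell below 0.05. The values correspond to between 2610238 and 6030028 reads per liver, with medians of 3305920 in control and 4302209 in EtOH livers. Quantile normalization raised the EtOH livers relative to the controls at middle levels: among 1912 transcripts with a mean of 20 to 200 RPKM, the median log2 difference was -0.15 as deposited and 0.004 after normalization. Group means in RPKM and normalized log2 differences can therefore differ in sign for genes that differed little. Of the 8 members and a ferritin light chain transcript, control animal 3 stood at an end of the control range for 7, being highest for *Hamp*, *Tf*, *Tfr2*, *Fth1* and the light chain transcript and lowest for *Tfrc* and *Slc40a1*. Its median correlation with the other controls was 0.930, against 0.934 to 0.941 for the other controls, over transcripts of at least 1 RPKM. Among the other genes described below it was also the highest control for *Bmp2*, *Alad*, *Hmox1*, *Hscb*, *Hes6*, *Psmb6*, *Nme2*, *Clec4f*, *Atoh8* and *Ftl*. It was the lowest control for *Crp*, *Stat3*, *Cps1* and *Slain2*. Values without this liver are given beside *Hamp*, the light chain transcript, *Tfrc*, *Slc40a1*, *Bmp2*, *Crp*, *Steap4*, *Alad* and *Hscb*. They are not given for *Clec4f*, *Cps1*, *Hes6*, *Psmb6* and *Nme2*, which were also called.

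The members spanned more than 3 orders of magnitude in RPKM. Transferrin mRNA was the most abundant, followed by *Fth1*, *Hamp*, *Tfr2*, *Slc40a1*, *Hfe2*, *Hfe* and *Tfrc*. Mean *Tf* RPKM was 11.1 times that of *Fth1*, and mean *Fth1* was 3.14 times that of *Hamp*. *Hamp* in turn stood 4.03 times above *Tfr2*, and *Tfr2* 1.56 times above *Slc40a1*. The remaining steps were 1.72-fold from *Slc40a1* to *Hfe2*, 2.81-fold to *Hfe* and 1.96-fold to *Tfrc*. Each neighbouring pair stood in this order in 12 of 12 livers, so the order was the same in both groups. Transferrin receptor 1 mRNA was thus the rarest member, below the mRNA of the second receptor, *Tfr2*, in every liver.

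**Figure D1:**
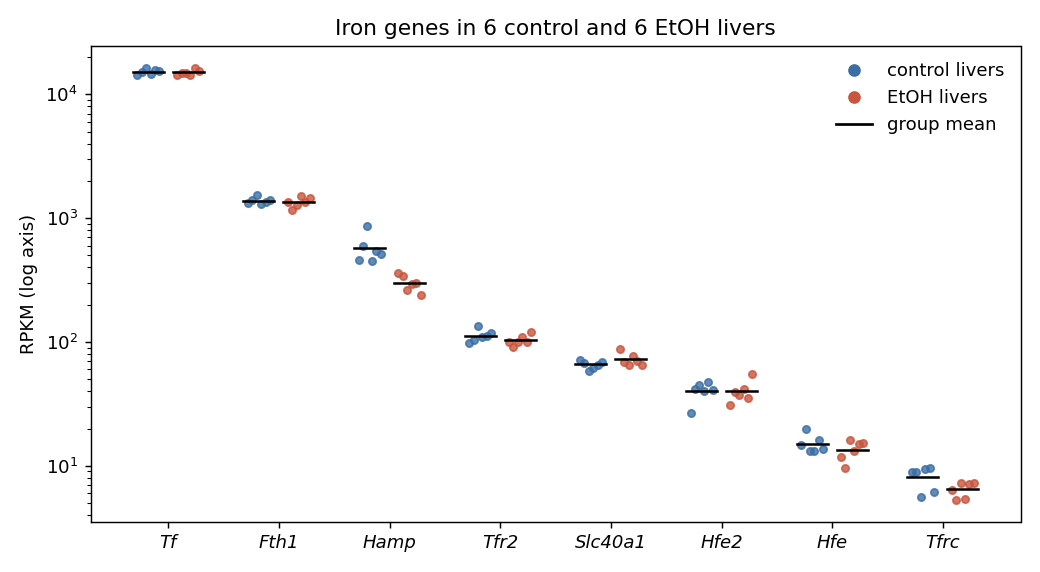
RPKM of the 8 members in each liver on a log axis, with control livers in blue, EtOH livers in red and a black bar at each group mean (6 livers per group). The order of the genes was the same in all 12 livers, and *Hamp* was the gene whose groups did not overlap.

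*Hamp*, which encodes hepcidin, was lower in EtOH livers. In the controls its level was 452 RPKM in the lowest liver, 524 at the median and 862 in the highest. In the EtOH livers it was 237, 297 and 362 RPKM. The groups did not overlap: the highest EtOH liver lay below the lowest control. The mean fell from 569 ± 152 to 300.1 ± 46.8 RPKM (SD, n = 6 each), which is 47.3% lower. The log2 difference was -0.82 (SE 0.16, 95% interval -1.17 to -0.48), with an adjusted p of 0.022 (limma). *Hamp* was the only one of the 8 members called, and also the only one whose groups did not overlap. Across all tested transcripts, 2.42% were called, 1.29% as lower and 1.13% as higher in EtOH livers, and 3.10% had groups that did not overlap.

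The *Hamp* values rested on 483 to 1049 reads per control liver and 387 to 635 per EtOH liver. Counting error alone would give a coefficient of variation of 3.62% in controls and 4.24% in EtOH livers, against 26.7% and 15.6% observed. The spread between livers was thus several times that of read counting. Control animal 3 had the highest *Hamp* level, and without it the control mean was 511 ± 58.0 RPKM (n = 5), the log2 difference -0.70 and the adjusted p 0.022 (limma). The adjusted p rose to 0.051 without control animal 2 and to 0.053 without EtOH animal 3 (limma), just past the threshold. With the pooled-error test of the study's methods on square-root values the adjusted p was 0.063. Because these are whole livers, fewer cells of a type and less RNA per cell cannot be told apart.

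The stretch of 250 bases before the *Hamp* start site is shown because BMP and interleukin 6 signals are known to act on the hepcidin promoter. It lies on the minus strand at chr1:95300272-95300521 of GRCr8 in RefSeq, while the deposited coordinates (chromosome 1, 85978120 to 85980059) belong to another build, which the sources used here do not name. Capitals mark, 5′ to 3′, a match to GGCGCC, a core known from BMP-responsive elements, and a match to TTCNNNGAA, the general form of a STAT site. They begin 129 and 117 bases before the start site, and both motifs read the same on either strand.
*Hamp*: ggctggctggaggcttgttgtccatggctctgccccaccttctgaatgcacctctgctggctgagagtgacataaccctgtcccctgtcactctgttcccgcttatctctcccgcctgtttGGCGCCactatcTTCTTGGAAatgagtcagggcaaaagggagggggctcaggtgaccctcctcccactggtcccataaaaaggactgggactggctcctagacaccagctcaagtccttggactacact
The 2 motifs stand 6 bases apart without overlap. Of 33469 rat promoters of this length in RefSeq, GGCGCC was found in 8.69%, TTCNNNGAA in 7.67% and both together in 0.379%. Promoters were given for 7 of the 10 named genes, *Bmp6* included and *Fth1*, *Hfe* and *Ftl1* left out. Among the 7, GGCGCC was found in *Hamp* and *Tfrc*, and TTCNNNGAA in *Hamp* and *Hfe2*. The 30 bases around the *Tfrc* match, which begins 118 bases before its start site, are given for comparison with the same core in capitals.
*Hamp* core: tcccgcctgtttGGCGCCactatcttcttg
*Tfrc* core: acctgccgccttGGCGCCttttctctccca
A match to these letters does not show that a factor bound there. Whether these matches bear on the difference between groups was not tested.

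The membrane proteins through which hepatocytes sense iron, and which act on hepcidin transcription, did not pass the test. *Hfe2* encodes hemojuvelin, a co-receptor for BMPs. Its level was 26.8, 41.2 and 47.7 RPKM in the lowest, median and highest control liver and 31.0, 38.3 and 55.6 RPKM in EtOH livers. The groups overlapped almost fully, with means of 40.3 ± 7.28 and 40.0 ± 8.48 RPKM (SD, n = 6 each). The log2 difference was 0.15 (95% interval -0.15 to 0.45, adjusted p = 0.65, limma), and -0.013 on the values as deposited.

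*Tfr2* encodes transferrin receptor 2, which binds iron-loaded transferrin and signals its presence. The lowest, median and highest levels were 98.2, 109.8 and 134 RPKM in control livers and 90.6, 99.99 and 121 RPKM in EtOH livers. The log2 difference was 0.04 (95% interval -0.10 to 0.17, adjusted p = 0.81, limma) and -0.12 as deposited, the interval being the narrowest of the iron sensors. *Hfe* encodes the MHC class I-like protein that associates with the transferrin receptors and is mutated in the commonest hereditary haemochromatosis. It ran from 13.2 through a median of 14.2 to 19.7 RPKM in control livers and from 9.69 through 14.04 to 16.1 RPKM in EtOH livers. The groups overlapped, and the log2 difference was -0.03 (95% interval -0.30 to 0.24, adjusted p = 0.93, limma). The 71 to 180 *Hfe* reads per liver allowed a counting error of about 10.3% in controls and 9.19% in EtOH livers, against coefficients of variation of 16.4% and 17.9%. Of the other *Hfe* transcripts, one held 6 reads over all control and 5 over all EtOH livers, and the second 2 and 15 reads (adjusted p = 0.31, limma). The second transcripts of *Hfe2* and *Tfr2* were listed at 0 in all 12 livers.

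For uptake, neither the carrier nor its receptor was called. *Tf* encodes transferrin, the plasma iron carrier that hepatocytes secrete. Its main transcript made up 97.2 to 97.9% of the RPKM of the 3 *Tf* transcripts. It ranged over 14385, 15155 and 16385 RPKM (lowest, median, highest) in control livers and 14315, 14970.5 and 16455 RPKM in EtOH livers. The 2 groups covered nearly the same range and differed by 1.17% in their means. *Tf* ranked 3 among all transcripts in every liver, which makes its quantile-normalized value the same in all of them, so the informative difference is that of the deposited values, -0.02 (adjusted p = 0.96, limma). The other 2 *Tf* transcripts were not called either (adjusted p = 0.21 and 0.61, limma).

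*Tfrc* encodes transferrin receptor 1, which carries iron-loaded transferrin into the cell. Its level was 5.61, 8.93 and 9.64 RPKM in the lowest, median and highest control liver and 5.29, 6.73 and 7.33 RPKM in the EtOH livers. The 4 highest control livers lay above all EtOH livers, while control animals 3 and 6 lay within the EtOH range. The mean was 8.11 ± 1.76 RPKM in controls and 6.47 ± 0.929 RPKM in EtOH livers (SD, n = 6 each). For *Tfrc* the log2 difference was -0.20 (SE 0.14, 95% interval -0.49 to 0.10, adjusted p = 0.55, limma), and -0.29 without control animal 3 (adjusted p = 0.28, limma). With 58 to 150 reads per liver, counting error came to 10.4% in controls and 9.85% in EtOH livers, against coefficients of variation of 21.7% and 14.4%.

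For storage, *Fth1*, the ferritin heavy chain with the ferroxidase activity that oxidises iron on entry, did not differ beyond its spread. The lowest, median and highest levels were 1312, 1375 and 1530.1 RPKM in controls and 1162, 1343 and 1508 RPKM in EtOH livers. For *Fth1* the log2 difference was 0.02 (SE 0.07, 95% interval -0.12 to 0.17, adjusted p = 0.90, limma), and -0.044 on the values as deposited. This interval and that of *Hamp* did not overlap.

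The ferritin light chain is the other chain of the shell. It was looked for by position after the values had been seen, since *Ftl1* was not matched by name. A transcript named *Ftl*, which RefSeq lists as a synonym of *Ftl1*, lies elsewhere, at chromosome 2, 61989926 to 61990836, and held 22 reads over the controls and 22 over the EtOH livers (adjusted p = 0.66, limma). A transcript named LOC100360087 lies at chromosome 1, 95929246 to 95931073, in the deposited coordinates, between *Gys1* and *Bax*. RefSeq places *Ftl1* between the same neighbours in GRCr8, and lists *Ftl1* as a synonym of LOC100360087 while placing that name on chromosome 5. The transcript is called the light chain transcript here, with the limit that ferritin copies can share reads. It stood at 1349, 1663 and 2509 RPKM in the lowest, median and highest control liver and at 1064, 1181 and 1231 RPKM in EtOH livers. The groups did not overlap. The mean was 1713 ± 423 RPKM in controls and 1159 ± 65.6 RPKM in EtOH livers (SD, n = 6 each), 32.3% lower. The log2 difference was -0.49 (SE 0.13, 95% interval -0.77 to -0.21) with an adjusted p of 0.068 (limma), so it was not called. It passed the threshold on the values as deposited (-0.53, adjusted p = 0.043, limma) and without control animal 3 (-0.37, adjusted p = 0.045, limma), which had the highest level.

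The balance of the ferritin mRNAs was read as a ratio and a sum. The ratio of *Fth1* to light chain RPKM was 0.838 ± 0.150 in controls (0.610 to 1.03) and 1.17 ± 0.115 in EtOH livers (0.970 to 1.30; SD, n = 6 each). These ranges overlapped between the highest controls and the lowest EtOH liver. The sum of both chains was 2691 to 4039 RPKM in controls and 2360.5 to 2682 RPKM in EtOH livers, without overlap. Both are given as a description, without a test, and the light chain transcript alone also had groups without overlap.

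For release, *Slc40a1* encodes ferroportin, the exporter that hepcidin removes from the membrane. Its level was 58.3, 66.8 and 71.9 RPKM in the lowest, median and highest control liver and 64.7, 70.0 and 87.6 RPKM in EtOH livers. EtOH animals 1 and 4 lay above all controls, and the other EtOH livers within the control range. The mean was 65.9 ± 4.99 RPKM in controls and 72.5 ± 8.67 RPKM in EtOH livers (SD, n = 6 each). *Slc40a1* differed by 0.29 on the log2 scale (SE 0.10, 95% interval 0.09 to 0.50, adjusted p = 0.14, limma), and 0.13 on the values as deposited (adjusted p = 0.44, limma), so it was not called. Without control animal 3, which had the lowest level, it was 0.24 (adjusted p = 0.23, limma). Kupffer cells, the liver macrophages, also express ferroportin, and their measured markers moved the same way. Of 5 measured Kupffer markers, from a list of 8, 3 were called higher, against 1.13% of all tested transcripts. Only 1 of the 3 was also called on the values as deposited. The summed level of the 5 markers was 116 to 175 RPKM in controls and 158 to 188 RPKM in EtOH livers. The part of Kupffer cells in the *Slc40a1* values was not tested. The ratio of hormone to exporter mRNA, *Hamp* over *Slc40a1*, was 6.41 to 14.8 in controls and 3.62 to 4.96 in EtOH livers, without overlap. It is given as a description, since *Hamp* alone also had groups without overlap.

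**Figure D2:**
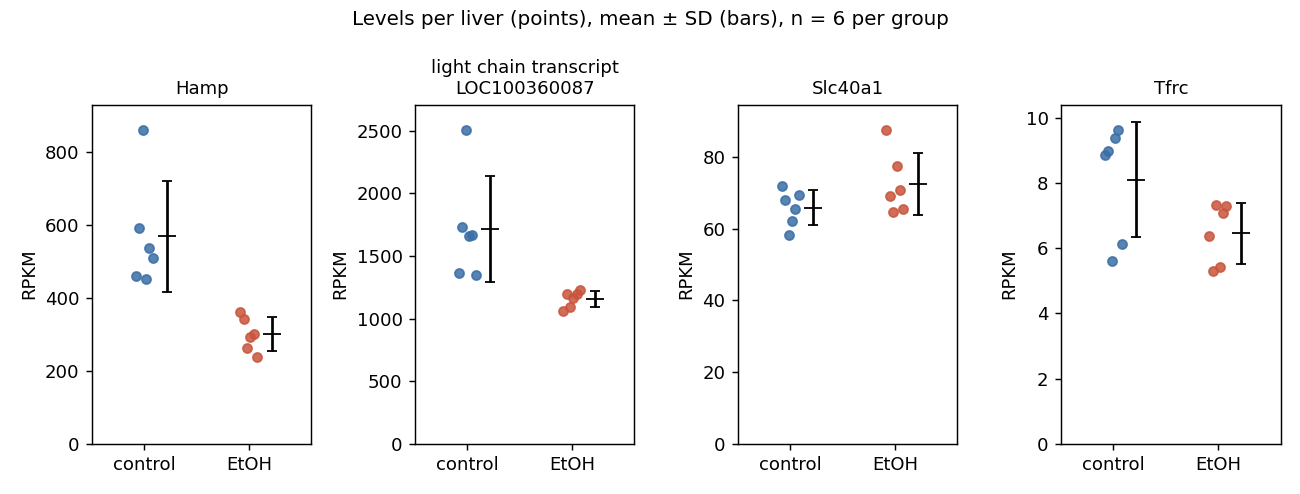
RPKM per liver of *Hamp*, the ferritin light chain transcript, *Slc40a1* and *Tfrc* on linear axes from 0, with points for livers and bars for mean ± SD (6 livers per group, control in blue and EtOH in red). The EtOH livers lay below all controls for *Hamp* (at most 362 against at least 452 RPKM) and for the light chain transcript (at most 1231 against at least 1349 RPKM), and overlapped them for *Slc40a1* and *Tfrc*.

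**Figure D3:**
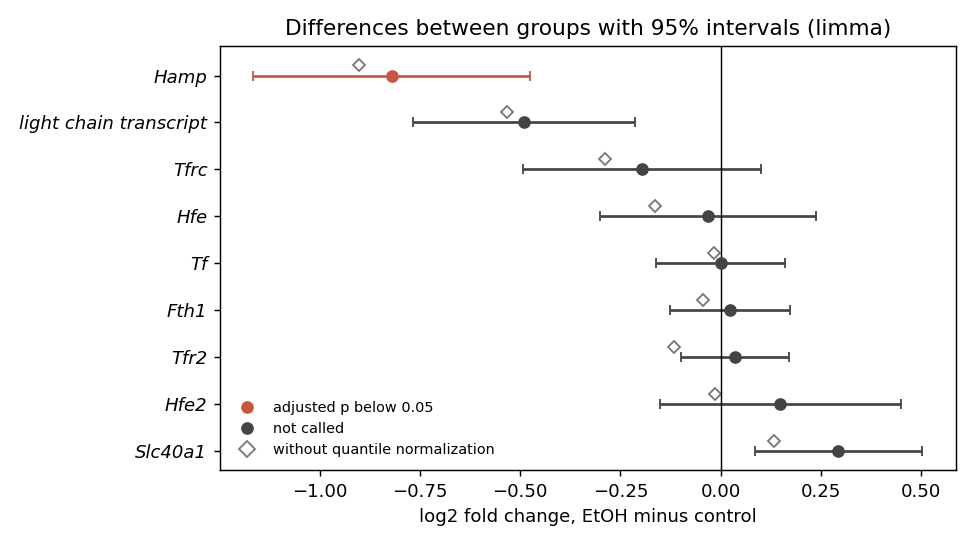
Log2 differences, EtOH minus control, of the 8 members and the light chain transcript with 95% intervals from limma (circles, red where called), and the values without quantile normalization (open diamonds). Only *Hamp*, at -0.82, was called; the diamonds lay to the left of the circles for every gene shown, and for *Hfe2*, *Tfr2* and *Fth1* on the other side of 0.

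The other genes of iron handling were described from 5 lists of 69 genes, of which 59 were matched and 58 tested. Of these, 2 were called higher, 1 was called lower and 55 were not called. These are 5.17% of the tested genes, against 2.42% over all transcripts, and rest on 3 genes. The list for hepcidin control holds BMP ligands, receptors, SMAD factors and the interleukin 6 branch. In it, 1 of 19 tested genes was called, higher, and the median log2 difference was 0.15 after normalization and 0.06 as deposited.

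The called gene was *Bmp2*, one of the BMP ligands that drive hepcidin, made in liver mainly by endothelial cells. It stood at 1.84, 2.65 and 3.30 RPKM in the lowest, median and highest control liver and at 2.73, 4.74 and 6.93 RPKM in EtOH livers. The 5 highest EtOH livers lay above all controls, and EtOH animal 2 lay within their range. On the log2 scale *Bmp2* was higher by 0.84 (SE 0.20, adjusted p = 0.046, limma). The level was low, 74 reads over all controls and 196 over all EtOH livers, and the call was lost under 16 of 23 alternative settings, among them leaving out control animal 3 (adjusted p = 0.051, limma). The endothelial marker *Cdh5* was also called higher (log2 difference 0.46, adjusted p = 0.049, limma), though not on the values as deposited (0.38, adjusted p = 0.085, limma), the summed level of the 3 measured endothelial markers being 24.5 to 31.3 RPKM in controls and 27.8 to 38.6 RPKM in EtOH livers. Its part in the *Bmp2* values was not tested.

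Genes that BMP signals are known to induce were not called. *Id1*, a standard readout of this pathway, was 15.3 ± 4.29 RPKM in controls and 10.2 ± 4.96 RPKM in EtOH livers (SD, n = 6 each), with a log2 difference of -0.54 (SE 0.33, adjusted p = 0.48, limma). For the inhibitory SMADs, the log2 difference was -0.43 for *Smad6* (adjusted p = 0.42) and -0.13 for *Smad7* (adjusted p = 0.68, limma). Other targets in the list lay on either side of 0, with -0.48 for *Id2* (adjusted p = 0.27), 0.06 for *Id3* (adjusted p = 0.90) and 0.18 for *Atoh8* (adjusted p = 0.52, limma). As deposited, *Id1* was at -0.66, *Smad6* at -0.42, *Smad7* at -0.20, *Id2* at -0.65, *Id3* at -0.096 and *Atoh8* at 0.02. None of these passed the threshold as deposited, the smallest adjusted p being that of *Id2* (0.087, limma). *Hamp* was set against *Id1*, *Smad6* and *Smad7* within each group of 6 livers, since the *Hamp* groups do not overlap. The 6 Pearson correlations ran from -0.69 for *Smad6* in EtOH livers to 0.59 for *Smad7* in EtOH livers. None passed a two-sided exact permutation test (smallest raw p = 0.12, adjusted over the 6 relations 0.64), and Spearman's rho of these was -0.54 and 0.66 (raw exact p = 0.30 and 0.18, both 0.84 adjusted). Leaving out the 2 livers farthest from the median turned r of *Smad6* in EtOH livers to 0.36 and gave 0.996 for *Smad7*, on 4 livers each. The interleukin 6 branch held *Stat3*, at 28.7 ± 3.51 RPKM in controls and 32.9 ± 3.11 RPKM in EtOH livers (log2 difference 0.35, adjusted p = 0.097, limma). As deposited, the *Stat3* difference was 0.19 (adjusted p = 0.28, limma). In the same branch, *Il6r* (0.26, adjusted p = 0.18) and *Socs3* (0.14, adjusted p = 0.83, limma) were not called either.

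The acute phase list was measured beside this branch, because interleukin 6 induces several of these plasma proteins together with hepcidin. Of its 6 tested genes 1 was called, *Crp*, which encodes C-reactive protein. *Crp* was 4763 ± 333 RPKM in controls and 5706 ± 681 RPKM in EtOH livers (SD, n = 6 each), without overlap. Its log2 difference was 0.33 (SE 0.08, adjusted p = 0.044, limma), and the call was lost under 15 of 23 alternative settings, among them the unnormalized values (adjusted p = 0.22, limma) and leaving out control animal 3, the lowest control (0.29, adjusted p = 0.073, limma). The list's median was 0.10 after normalization and 0.02 as deposited. Whether the *Crp* difference reflects interleukin 6 was not tested.

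Of 13 tested iron transport genes, 1 was called. This was *Steap4*, a metalloreductase that reduces ferric iron and cupric copper. It stood at 9.16, 11.3 and 14.9 RPKM in the lowest, median and highest control liver and at 13.3, 15.0 and 17.1 RPKM in EtOH livers. The ranges overlapped at their ends. Its log2 difference was 0.50 (SE 0.11, adjusted p = 0.039, limma), and the call was lost under 15 of 23 alternative settings, among them leaving out control animal 3 (adjusted p = 0.077, limma). The median of the list was -0.06 after normalization and -0.15 as deposited.

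None of the 5 tested genes of iron sensing and ferritin turnover was called, and the median was -0.11 after normalization and -0.24 as deposited. The smallest p was that of *Pcbp1*, a chaperone that delivers iron to ferritin. *Pcbp1* was 71.9 to 93.2 RPKM in controls and 53.4 to 69.6 RPKM in EtOH livers, without overlap. Its log2 difference was -0.26 after normalization (adjusted p = 0.067) and -0.42 as deposited (adjusted p = 0.016, limma).

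In haem synthesis and breakdown, 1 of 14 tested genes was called, lower, and 12 of 14 had a negative log2 difference, with a median of -0.14 after normalization and -0.27 as deposited. The called gene was *Alad*, which encodes the zinc enzyme that joins aminolaevulinic acid molecules into porphobilinogen early in haem synthesis. It stood at 94.1, 107.5 and 143 RPKM in the lowest, median and highest control liver and at 63.1, 74.3 and 85.6 RPKM in EtOH livers. The groups did not overlap, and the mean fell from 111 ± 16.6 to 75.1 ± 7.93 RPKM (SD, n = 6 each). The log2 difference was -0.41 (SE 0.07, 95% interval -0.57 to -0.25, adjusted p = 0.017, limma). *Alad* kept its call in 22 of 23 alternative settings, and without control animal 3 the difference was -0.37 (adjusted p = 0.025, limma). *Hmox1*, the inducible haem oxygenase that frees iron from haem, was 23.1 ± 4.14 RPKM in controls and 16.7 ± 1.64 RPKM in EtOH livers (log2 difference -0.29, adjusted p = 0.12, limma). On the values as deposited it passed the threshold (-0.44, adjusted p = 0.043, limma).

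Of 7 tested genes for iron-sulfur cluster assembly, none was called, with a median of -0.004 after normalization and -0.17 as deposited. The smallest p was that of *Hscb*, a co-chaperone that helps hand over new clusters. *Hscb* was 5.24 to 10.6 RPKM in controls and 4.01 to 6.71 RPKM in EtOH livers (log2 difference -0.47, adjusted p = 0.13, limma), and without control animal 3 the difference was -0.38 (adjusted p = 0.21, limma).

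**Figure D4:**
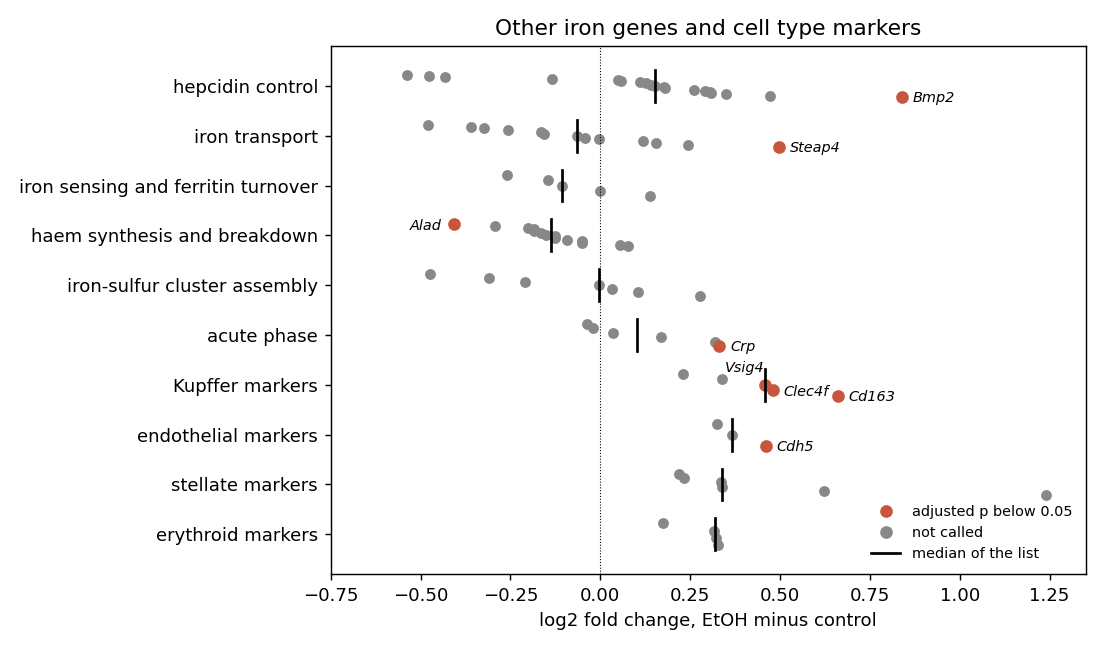
Log2 differences, EtOH minus control, of every tested gene in the iron lists, the acute phase list and 4 lists of cell type markers (points, red where called by limma, with a black bar at each list's median). *Bmp2* at 0.84 and *Steap4* at 0.50 were the called iron genes to the right of 0 and *Alad* at -0.41 the one to the left, while all measured Kupffer, endothelial, stellate and erythroid markers lay to the right.

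Markers of the cell types in liver were read beside these genes. Measured were 4 of 5 listed hepatocyte, 5 of 8 Kupffer, 3 of 8 endothelial, 6 of 6 stellate and 4 of 6 erythroid markers. Among 4 measured hepatocyte markers, *Alb* and *Ttr* were at 70352 and 5458 RPKM in the control mean, as in liver, and 1 was called, *Cps1* of the urea cycle, higher in EtOH livers (log2 difference 0.58, adjusted p = 0.022, limma). The called Kupffer markers were *Cd163*, the receptor for haptoglobin-haemoglobin (0.66, adjusted p = 0.043), *Clec4f* (0.48, adjusted p = 0.025) and *Vsig4* (0.46, adjusted p = 0.0034, limma). *Vsig4* kept its call in all 23 alternative settings, while on the values as deposited *Cd163* (0.56, adjusted p = 0.061) and *Clec4f* (0.32, adjusted p = 0.090, limma) lost theirs. None of 6 stellate markers was called, their sum being 6.36 to 12.8 RPKM in controls and 11.05 to 23.5 RPKM in EtOH livers. The smallest p among them was that of *Dcn*, which encodes the matrix proteoglycan decorin, at 1.09 to 3.22 RPKM in controls and 2.90 to 10.3 RPKM in EtOH livers. Its log2 difference was 1.24 (SE 0.30, adjusted p = 0.052, limma), and it passed the threshold on the values as deposited (1.20, adjusted p = 0.045, limma). None of 4 measured erythroid markers was called, the smallest p being that of the globin gene *Hbb* (0.32, adjusted p = 0.45, limma), and their sum of 293 to 633 RPKM in controls and 397 to 677 RPKM in EtOH livers shows that red cell mRNA was present in all livers. The part of these cells in the iron gene values was not tested.

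The transcripts most like *Hamp* were sought among 11085 with a mean of at least 1 RPKM, by Pearson correlation of normalized log2 values over the 12 livers, as a description. They were *Hes6*, a transcription factor of the HES family, *Psmb6*, a catalytic subunit of the proteasome, and *Nme2*, a nucleoside diphosphate kinase. Since *Hamp* levels separate the groups, the likeness is given within each: r was 0.87 in controls and 0.89 in EtOH livers for *Hes6*, 0.86 and 0.79 for *Psmb6*, and 0.76 and 0.76 for *Nme2* (6 livers each). *Hes6* was 41.6, 62.2 and 98.9 RPKM in the lowest, median and highest control liver and 20.8, 27.1 and 33.4 RPKM in EtOH livers. As for *Hamp*, the groups did not overlap, and control animal 3 was the highest. Those most like *Tfrc* were *Ppat*, the first enzyme of purine synthesis, *Slain2*, a microtubule protein, and the transcript D4ADI5_RAT, with within-group values of 0.93 and 0.88, 0.85 and 0.78, and 0.81 and 0.83 in controls and EtOH livers. These correlations share the depth and RNA of each liver and were the highest of many. Those in controls include control animal 3.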

How the data were processed

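Poly(A) RNA of 12 rat livers was sequenced in paired-end reads with all barcoded libraries pooled in a single lane. The authors mapped reads with CLCbio Genomics Workbench and deposited RPKM values for each liver. The genome build and annotation are not given in the sources used here. The deposited table also holds a fold change, a test statistic, a p-value and an FDR per transcript from the authors' own comparison, which were not used. Sample columns were matched to animals by title, and groups came from the labels. Nothing ties the animal numbers of the groups to each other. Members and gene lists were chosen with earlier results of these data known.

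From the RPKM values, whole reads were recovered for 21718 of 21718 detected transcripts within 0.01 reads, which gives each liver's depth. Intervals from reads cover counting error only. Values were transformed to log2(RPKM + 0.5), quantile-normalized, and fitted with limma 3.58.1 with a mean-variance trend in R 4.3.3 (two-sided, Benjamini-Hochberg over all detected transcripts, threshold 0.05). This scale understates differences of low transcripts. Other steps used Python 3.11.15, pandas 2.3.3, numpy 2.4.6 and scipy 1.17.1. The fit was tested on simulated data in which every transcript had the same spread between livers beyond counting error. In these data the fit called 6 of 50 transcripts changed 1.5-fold, 29 of 50 changed 2-fold and 48 of 50 changed 3-fold. Of transcripts lowered to 0.5-fold it called 23 of 50, and of unchanged ones 5 of 20632. A difference that was not called is thus not shown to be absent. The observed spread differed between members, so these shares do not hold for each member.

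As alternatives, quantile normalization was left out or replaced by median scaling, the pseudocount was set to 0.1 or 1, a minimum mean of 0.1 or 1 RPKM was required, and the trend was dropped. Square-root values were tested with limma and with the pooled-error test of the study's methods, recovered reads with limma voom, and the fit was repeated with a replicate block and without each of the 12 livers. Named are all member transcripts, in each list every called gene and that of smallest p, and the 3 transcripts most like *Hamp* and *Tfrc*. The light chain transcript, *Gys1*, *Bax*, *Ftl*, *Hmox1* and the *Alb* and *Ttr* markers were singled out after values were seen. So were *Id1*, *Id2*, *Id3*, *Atoh8*, *Smad6*, *Smad7*, *Stat3*, *Il6r* and *Socs3*. Relations of *Hamp* to *Id1*, *Smad6* and *Smad7* were computed within groups only, as 6 relations, because its groups did not overlap. Promoter sequences are those of RefSeq for GRCr8.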

Additional observations from a re-analysis of the deposited data

Results flagged for a closer look

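In 2 of 18 groups of 6 livers looked at (8 members and the light chain transcript in each group), 1 liver lay far from the others, and chance gives about 1 in 20. Both were control animal 3. Its *Hamp* level was 862 RPKM, with the next control at 593 RPKM, and its light chain transcript stood at 2509 RPKM, with the next control at 1730.2 RPKM. Without it, *Hamp* was 41.3% lower and the light chain transcript 25.4% lower in EtOH livers, both called (adjusted p = 0.022 and 0.045, limma).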

How the results depend on the processing

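Of 23 alternative settings, *Hamp* kept its direction in all and its call in 19. The lost calls were those of the pooled-error test on square-root values (difference -5.83 in square-root RPKM units), the replicate block (-0.82, adjusted p = 0.089, limma) and leaving out control animal 2 or EtOH animal 3. Leaving out 1 liver at a time gave -0.89 to -0.70. The animal numbers did not pair the livers: correlations of deviations between same-numbered animals ran from -0.07 to 0.03, and 1 of 6 controls correlated best with its own number. Under the replicate block, 113 transcripts were called in place of 526, no member and no listed iron gene. The pooled-error test called 322 transcripts, 0 members and 1 listed gene, a minimum mean of 1 RPKM called 860 transcripts and 5 listed genes, no normalization 5 listed genes and no trend 1, in place of 3. With 1 liver left out, 212 to 656 transcripts, 0 to 1 members and 1 to 3 listed genes were called. The count of transcripts fell by over 1.5 times when control animals 2 (275) and 4 (285) or EtOH animals 2 (212), 3 (252), 4 (295) and 5 (298) were each left out, and the listed genes to 1 without control animals 2, 3 or 4 and EtOH animals 1, 3, 4 or 5. Signs turned for members near 0 only: *Hfe2* to -0.013 and *Fth1* to -0.044 without normalization, *Tfr2* to -0.12 without normalization, -0.023 with median scaling and -0.0075 with voom, *Fth1* to -0.065 with voom, and, with 1 liver left out, *Hfe* between -0.090 and 0.044 and *Fth1* between -0.015 and 0.058. Apart from the scaling steps, whose shift at middle levels was measured, the cause was not tested. *Slc40a1* and *Tfrc* kept their direction in all settings and were called in none, and the light chain transcript was called in 7. Summing all transcripts of a gene moved no level beyond its spread. *Hfe* and *Tfrc* had 58 to 180 reads per liver, the fewest of the members.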
